A study of Caenorhabditis elegans with 2 samples.

Results

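The genes described here are 44 regulators of embryonic cell fate in Caenorhabditis elegans, out of 19973 protein-coding genes on the 6 nuclear chromosomes. They were taken by name from a fixed list and comprise 6 Hox genes, 9 endoderm factors, 11 pharynx factors, 11 epidermis factors and 7 muscle and mesoderm factors. All 44 names matched a gene model. The measurement was chromatin immunoprecipitation followed by sequencing (ChIP-seq) of the transcription factor REF-1, which shows where a tagged protein was recovered on DNA. There was 1 group, midembryos of strain RW12224 aged 3 hours and collected by bleaching, with 2 biological replicates. In this strain the allele st12224 carries the fusion ref-1::TY1::EGFP::3xFLAG, inserted by CRISPR at ref-1 itself on chromosome II. An antibody against GFP was used to recover it. No group without the tag was analysed here, nor was a control library, so no value below is a difference between conditions. The material was whole embryos, in which fewer cells with REF-1 at a site and less REF-1 at that site in each cell cannot be told apart.

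REF-1 belongs to a nematode family of repressor-type proteins related to the HES factors of other animals, which often act downstream of Notch. The ref-1 gene takes its name from the regulation of epidermal cell fusion, a process in which it has been linked genetically to the Hox genes lin-39 and mab-5, and it is switched on by Notch together with GATA factors in endoderm precursors. Its relatives take part in the Notch-dependent repression of the T-box genes tbx-37 and tbx-38 in early pharyngeal fate. Hox genes set position along the body axis. In the endoderm a short cascade runs through SKN-1, the GATA factors MED-1 and MED-2, then END-1 and END-3, and then ELT-7 and ELT-2, with POP-1, the TCF factor of the Wnt pathway, deciding between sister cells. PHA-4, a FoxA factor, specifies the pharynx, ELT-1 and LIN-26 the epidermis, and PAL-1, a Caudal homologue, much of the posterior muscle.

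The deposited files list places of enrichment as intervals with a summit, the base of highest signal. In the main ranked list, 72151 such candidates were ordered by how reproducibly they ranked in the 2 replicates, a quantity called the irreproducible discovery rate (IDR). The score of a candidate runs to a limit of 1000, and a score of 830 is a global IDR of 0.01, 540 one of 0.05 and 415 one of 0.1. The authors' conservative set holds the 675 peaks at or above 830 that they kept. A second deposited pair of lists, called here the other set (653 peaks) and the other ranked list, was also read, as were the lists of each replicate alone. Each gene was given all summits from 5000 bp upstream of its start to its end, so a summit may count for several genes. The best candidate of a gene is the one with the highest score. For each candidate the list gives a merged signal and the signal in its 2 inputs, which are the 2 replicates and are called input 1 and input 2 as the file orders them. The scale of the signal is not stated. Sequences around 6 of the best candidates come first. They are 5 of the 6 distinct ones that scored at least 540 (that of pop-1 is not shown) and that of elt-2, the main gut GATA gene. They were read from the RefSeq genome of the same build (WBcel235, ce11), 5′ to 3′ on the strand of the gene.

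Capitals mark motifs searched on both strands. These are the HES site CACGCG, the palindromic E-box CACGTG, the N-box CACNAG, the GATA site (AGATAA or AGATAG or CGATAA or CGATAG or TGATAA or TGATAG), the homeobox core TAATTA and the LAG-1 site of the Notch pathway (ATGGGAA or GTGGGAA). The tbx-8 stretch is the part of its peak upstream of the gene (79 bases, chrIII:10347270-10347348, plus strand). The others reach 100 bases to either side of the summit (201 bases) and lie at chrIII:5139943-5140143 (tbx-2, minus strand), chrIII:12082136-12082336 (nob-1, minus), chrII:7682749-7682949 (lin-26, plus), chrIV:1911303-1911503 (egl-18, plus) and chrX:10480654-10480854 (elt-2, plus).
tbx-8: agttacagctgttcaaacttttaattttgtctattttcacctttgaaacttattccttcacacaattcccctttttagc
tbx-2: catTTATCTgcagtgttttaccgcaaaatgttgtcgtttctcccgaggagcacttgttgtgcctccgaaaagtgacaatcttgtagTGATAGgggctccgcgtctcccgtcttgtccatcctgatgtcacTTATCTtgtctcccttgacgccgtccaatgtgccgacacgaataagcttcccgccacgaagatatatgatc
nob-1: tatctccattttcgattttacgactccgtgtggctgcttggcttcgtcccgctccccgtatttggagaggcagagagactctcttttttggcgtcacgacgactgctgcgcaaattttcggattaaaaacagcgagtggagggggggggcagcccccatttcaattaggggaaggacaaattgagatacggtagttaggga
lin-26: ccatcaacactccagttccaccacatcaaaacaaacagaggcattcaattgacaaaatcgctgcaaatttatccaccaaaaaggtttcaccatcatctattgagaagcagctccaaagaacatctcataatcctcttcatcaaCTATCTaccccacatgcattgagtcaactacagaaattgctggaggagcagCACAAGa
egl-18: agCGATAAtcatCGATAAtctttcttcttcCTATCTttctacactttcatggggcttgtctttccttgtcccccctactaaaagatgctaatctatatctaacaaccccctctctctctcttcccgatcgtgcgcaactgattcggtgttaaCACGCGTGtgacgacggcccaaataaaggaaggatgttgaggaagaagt
elt-2: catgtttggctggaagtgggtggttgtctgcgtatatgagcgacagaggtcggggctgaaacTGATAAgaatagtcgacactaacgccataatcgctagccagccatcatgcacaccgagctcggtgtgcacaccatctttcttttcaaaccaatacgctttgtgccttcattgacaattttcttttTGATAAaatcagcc

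The egl-18 window is the one of these 6 that held the HES site. It held 2 matches that overlap, one on each strand, at 52 to 57 and 54 to 59 bases downstream of the summit, and together they read CACGCGTG. It also held 3 GATA matches, at 98, 88 and 70 bases before the summit (first base of each). The tbx-2 window held 3 GATA matches, the nearest starting 14 bases before the summit. The lin-26 window, which lies wholly in coding sequence, held an N-box 94 bases and a GATA match 43 bases after the summit. The elt-2 window held 2 GATA matches, one starting 38 bases before the summit and one 87 bases after it. The nob-1 window and the printed part of tbx-8 held none of the 6 motifs, and the whole window of tbx-8, which reaches into its transcript, held 1 GATA match. A match is a description of the letters and not a site of binding.

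REF-1 peaks in the strict sense were rare at these genes. In the conservative set 2 of the 44 members had a summit, tbx-8 and tbx-2 (4.55%), against 989 of all protein-coding genes (4.95%), a share near the background. In the other set 2 members had one as well, tbx-8 and pop-1 (4.55%, against 4.88% of all genes). In the thresholded sets of single replicates no member had a summit, neither in that of replicate 1 (0 of 44, against 2.61% of all genes) nor in that of replicate 2 (0 of 44, against 3.18%). The depth of the libraries is unknown. No interval is given for these counts, because the list of genes was not drawn at random and a summit may count for several genes.

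Lower down the list the members lay above the median gene. The best score of the members had a median of 201.0 (quartiles 112.0 and 355.2), against 128.0 (68.0 and 254.0) for all protein-coding genes, and 30 of the 44 lay above 128.0. A best score of at least 540 was reached by 7 members (15.9%), against 9.88% of all genes. This did not hold in the lists of single replicates, where 2 members reached it in that of replicate 1 (against 4.20% of all genes) and 1 in that of replicate 2 (against 5.01%). In the other ranked list 5 of the 44 members reached it, against 9.35% of all genes, a smaller difference. The 7 members of the main ranked list were tbx-8, tbx-2, pop-1, lin-26, egl-18 and the neighbours nob-1 and php-3. The last 2 share 1 summit, so that 6 distinct candidates lie behind the 7 genes. At 415 pha-4 joined them (8 members, 18.2%, against 13.6%). With 1 candidate or more were 43 members (97.7%), against 88.7% of all genes, and the 1 without was tbx-35. No test was made of these shares, because there is 1 group and the list of genes was not drawn at random.

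**Figure D1:**
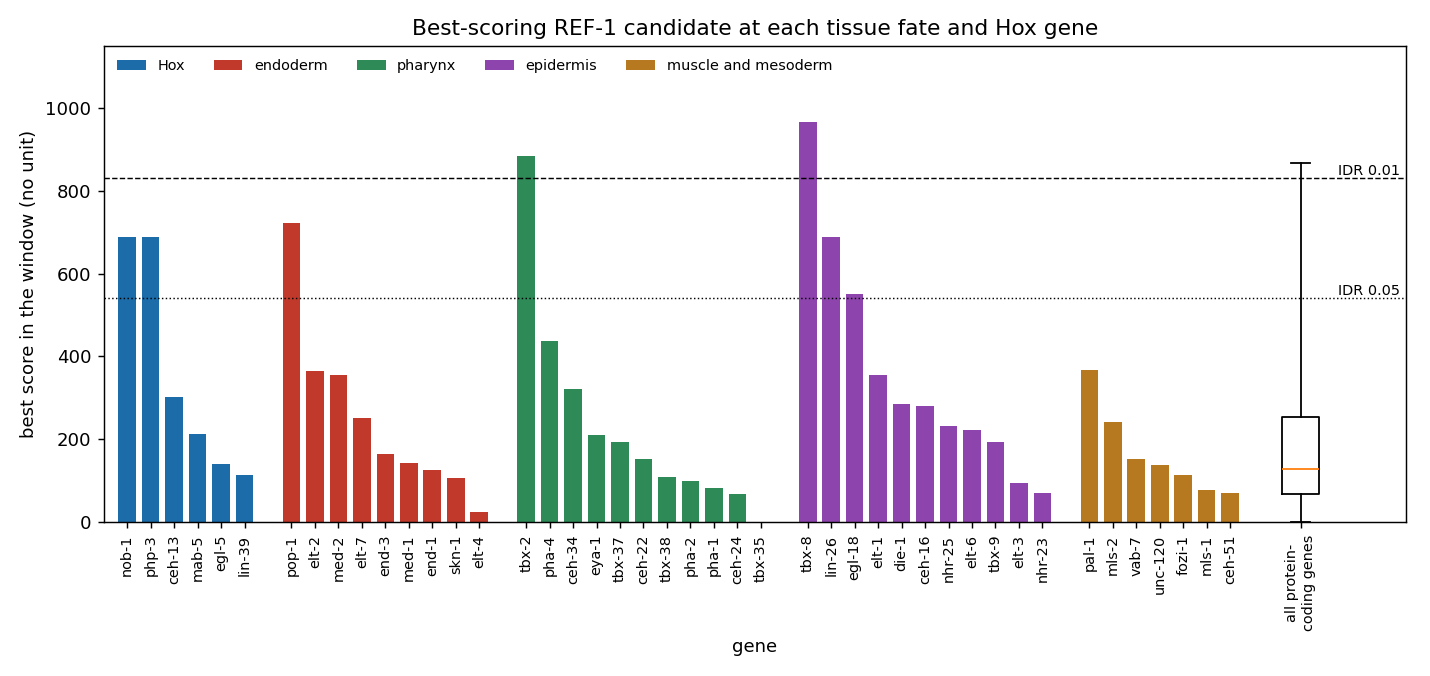
Bars give the best score (no unit, limited to 1000) from 5000 bp upstream to the gene end for each of the 44 genes, in 5 tissue groups, and the box at the right gives all protein-coding genes (line: median 128.0; box: quartiles 68.0 and 254.0; whiskers: the 5th and 95th percentiles, 0 and 867). The bars of tbx-8 (967) and tbx-2 (883) pass the line of a global IDR of 0.01, and those of pop-1 (723), nob-1, php-3 and lin-26 (689 each) and egl-18 (550) end between it and the line of 0.05.

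Both members with a peak in the conservative set are T-box genes. The gene tbx-8 (WBGene00006545, III, 10347349 to 10349740, plus strand) acts with its paralogue tbx-9 in the shaping of the embryonic epidermis and body wall. Its best candidate (III, 10347270 to 10347545) had a score of 967 and a global IDR of 0.00467. Its summit lay 59 bp downstream of the gene start, in the 5′ UTR. Among the 43 members with a candidate this was the shortest distance to the gene start, though the best candidate of elt-3 lay 27 bp from the start of one of its transcripts. The signal was 37.2 in input 1 and 41.0 in input 2. The merged signal of 71.3 ranked 1041 of 72151 candidates but only 620 of the 675 peaks of the conservative set, where the median was 102. The merged signal was thus high for a member and low for that set. The same place scored 848 in the other ranked list but 230 in the list of replicate 1 and 119 in that of replicate 2.

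At tbx-2 (WBGene00006543, III, 5130923 to 5136296, minus strand), which is needed for anterior pharyngeal muscle, the best candidate (III, 5139905 to 5140180) scored 883 (global IDR 0.00746). Its signal was 36.1 in input 1 and 37.9 in input 2, again close to each other. The summit lay 3747 bp upstream of tbx-2, inside the neighbouring gene Y54H5A.2, and none of the 201 bases around it were exonic. The nearest start of a protein-coding transcript was still that of tbx-2. The merged signal of 78.4 is the highest of any best candidate of the 44 genes and ranked 785 of 72151. It scored 760 in the other ranked list, 246 in that of replicate 1 and 223 in that of replicate 2, so neither replicate alone reached the threshold.

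The other T-box members scored lower. The pair tbx-37 and tbx-38, which act redundantly in early pharyngeal mesoderm, had best scores of 192 (signal 22 and 22.8 in inputs 1 and 2) and 109 (30.3 and 19.4). Sequence that occurs once in the genome, measured as the share of 31-base words, made up 67.5% of the best candidate of tbx-37 and 73.6% of that of tbx-38, against 91.3% of the genome. Reads from the copies may therefore be missing or shared at these genes. The gene tbx-9 had 193, from a candidate that lies between it and tbx-8 and is nearer to tbx-8. The muscle gene mls-1 had 78. The gene tbx-35 (WBGene00006554), which specifies the MS blastomere, the source of much of the pharynx and body muscle, had no candidate in the main ranked list, although all its 31-base words are unique. It had 1 candidate in the other ranked list (score 87, signal 34.3) and 4 in the list of replicate 1, the best of which scored 36, and none in that of replicate 2.

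Among the Hox genes 2 of the 6 reached 540 (33.3%, against 9.88% of all genes), both through 1 shared candidate. The median best score of the group was 256.5, with a range of 113 to 689. The highest belonged to nob-1 (WBGene00003779, III, 12077793 to 12084316) and php-3 (WBGene00004024, III, 12074218 to 12077556), posterior Hox genes that lie side by side on the minus strand. They share the candidate at III, 12082098 to 12082373 (score 689, global IDR 0.0219), which lies 2080 bp into nob-1, in an intron, and 4680 bp upstream of php-3. Its signal was 41.6 in input 1, the highest of any best candidate of the 44 genes there, and 31.3 in input 2. The merged signal of 73.0 ranked 965 of 72151. The other lists differed at this candidate, with a score of 418 in that of replicate 1, 18 in that of replicate 2 and 276 in the other ranked list. The 2 genes shared 8 candidates in all, so the 13 of one are not separate from the 13 of the other.

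The anterior Hox gene ceh-13 (WBGene00000437, III, 7555660 to 7558041, plus strand), a labial homologue, came next with 301. That candidate lay 3855 bp upstream, with signals of 26.9 in input 1 and 25.3 in input 2. The mid-body genes mab-5 and lin-39, both linked to REF-1 in cell fusion, had best scores of 212 and 113. The candidate of mab-5 lay in an intron 2749 bp from the start (25 and 22.6 in inputs 1 and 2). That of lin-39 lay 119 bp upstream of the start (16.1 and 23.7), and its window held the palindromic E-box. The posterior gene egl-5, an Abdominal-B homologue, had 140 from a candidate 145 bp upstream (19.3 and 20.7). Thus lin-39 and egl-5 had their best candidates close to the start, with best scores near the middle of all genes. Of all protein-coding genes, 44.7% and 53.5% scored lower than they did. For mab-5 the share was 69.6%.

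The endoderm cascade was led by pop-1 (WBGene00004077, I, 2822243 to 2830311, minus strand). Its best candidate (I, 2822728 to 2823003) scored 723 (global IDR 0.0181), lay in the 3′ UTR 7445 bp from the gene start, and was 732 bp from the start of W03D8.3, the nearest. The signal was 38.7 in input 1 and 32.3 in input 2, and the merged 78.3 ranked 788 of 72151. This place scored 846 in the other ranked list and entered the other set as its number 546 of 653 by signal. In the lists of single replicates it scored 579 and 124. A second candidate of pop-1, 1243 bp upstream of the start, scored 649 (32.2 in input 1 and 32.6 in input 2). An entry 1451 bp upstream with a merged signal of 13.2 repeats the same pair of input peaks and adds nothing to them. With 20 candidates, or 1.53 per kb of window, pop-1 was one of the denser members.

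The GATA factors of the gut were spread over the list, and none reached 415 (against 13.6% of all genes). The gene elt-2 (WBGene00001250, X, 10481240 to 10483441, plus strand), which keeps the intestinal programme running, had 364 from a candidate 486 bp upstream (23.8 in input 1 and 31.3 in input 2), the one whose sequence with 2 GATA matches is printed above. Of all protein-coding genes, 83.7% had a lower best score. For med-2 (WBGene00003181, III, 6884503 to 6885027, plus strand), which acts at the top of the cascade, it was 356 (25.9 and 27.9 in inputs 1 and 2), 1522 bp upstream and inside K04C2.7. Its near-identical copy med-1 had 142 from a candidate within the gene. At both med genes 45.3% of 31-base words are unique, as are 46.7% of those at the best candidate of med-1, so signal inside these 2 genes cannot be placed with certainty. The candidate of med-2 lies outside the repeated part, with all its words unique.

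Next came elt-7 with 250 from an intron (77.2% of the words of that candidate are unique), end-3 with 164, then end-1, skn-1 with 105 and elt-4 with 25. The candidates of end-3 and end-1 were nearest to the starts of other genes, ddx-17 at 198 bp and eol-1 at 993 bp. That of elt-4, a small GATA gene next to elt-2, had the lowest best score of the 43 members with a candidate, with signals of 9.80 in input 1 and 19.1 in input 2. In the main ranked list the order of the best scores did not follow that of the cascade. There med-2 and elt-2 stood close together, and end-1 and end-3 stood below both. In the other ranked list med-2 had 53, below end-1 (76) and end-3 (152), and elt-2 had 233.

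In the pharynx group the median was 152.0. After tbx-2 came pha-4 (WBGene00004013, V, 20753052 to 20760317, plus strand) with 438 (global IDR 0.0878), in an intron 3347 bp from the gene start and 511 bp from the nearest transcript start, its own. Its signal was 32.2 in input 1 and 27.5 in input 2, and its window held the palindromic E-box. Chosen by signal in place of score, the candidate of pha-4 would be another (51.7, score 291). The Six-type homeobox gene ceh-34 (WBGene00000455, V, 5315496 to 5319577, minus strand) had 321 (32.0 and 25 in inputs 1 and 2), 3541 bp upstream and nearer to its paralogue ceh-33 (1548 bp). That window held the single LAG-1 match among the 42 distinct best candidates. The candidate of ceh-34 scored 559 in the other ranked list, above 540. It scored 145 in the list of replicate 1 and 58 in that of replicate 2. The coactivator gene eya-1, the partner of ceh-34, had 209, the Nkx gene ceh-22 had 152, pha-2 had 99, pha-1 had 83 and ceh-24 had 68.

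The candidate of ceh-24, a homeobox gene of pharyngeal muscle, had 14.9 in input 1 and 33.0 in input 2. The ratio of 0.452 was the lowest of all members, and the merged signal of 51 came with a score of 68. The highest ratio was that of tbx-38 (1.56).

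The epidermis group had the highest median, 279.0, and 3 of the 11 reached 540 (27.3%, against 9.88% of all genes). Besides tbx-8 these were lin-26 and egl-18. The gene lin-26 (WBGene00003012, II, 7682198 to 7684764, plus strand), a zinc finger factor that maintains epidermal fate, had a candidate at II, 7682711 to 7682986 that scored 689 (global IDR 0.0218). It lay in a coding exon 651 bp from the start, with signals of 31.9 in input 1 and 34.2 in input 2. The score was as high as that of nob-1, but the merged signal of 57.7 ranked only 2709 of 72151. It scored 498 in the other ranked list, 25 in that of replicate 1 and 18 in that of replicate 2. Its score was thus high in the lists of the pair and low in both single ones. By signal it ranked 1978 of 45345 in the list of replicate 1 and 2784 of 44673 in that of replicate 2.

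The GATA gene egl-18 (WBGene00001186, IV, 1902322 to 1917840, plus strand) acts with its neighbour elt-6 in the seam cells of the epidermis. Its best candidate (IV, 1911265 to 1911540) scored 550 (global IDR 0.0472) in an intron 9081 bp from the gene start, and it is the window with the overlapping HES sites. The signal was 36.0 in input 1 and 29.2 in input 2. It scored 649 in the other ranked list, 687 in the list of replicate 1 and 24 in that of replicate 2. The gene held 35 candidates, the most of all members, at 1.71 per kb of window. A second one, 3348 bp upstream, scored 488 (27.9 and 30.8 in inputs 1 and 2). The neighbour elt-6 scored 221 from a candidate that lies inside egl-18, and the 2 genes shared 8 candidates.

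The remaining epidermis genes formed a middle group and a low one. The gene elt-1, the GATA factor at the head of epidermal fate, had 355 in an intron (23.2 in input 1 and 32.5 in input 2). The zinc finger gene die-1 had 286, the engrailed homologue ceh-16 had 279 and the nuclear receptor gene nhr-25 had 232. At the low end were elt-3 (94) and the molting regulator nhr-23 (71). In the list of replicate 2 alone, however, nhr-23 had a candidate that scored 562.

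The muscle and mesoderm group had a median of 138.0 and no member at 415 (0 of 7, against 13.6% of all genes). The highest was pal-1 (WBGene00003912, III, 4804688 to 4809576, minus strand) with 366 (35.7 in input 1 and 25.8 in input 2), in an intron 3797 bp from the start. Its window held the single homeobox core TAATTA among the best candidates. The HMX-type gene mls-2 (WBGene00003377, X, 4758804 to 4761640, minus strand), which patterns the postembryonic mesoblast, had 242 (28.5 and 23.3), 2199 bp upstream, with 2 N-boxes. By merged signal this candidate stood higher, at 62.4 and rank 1818. The even-skipped homologue vab-7 (WBGene00006873, III, 10920344 to 10926041, plus strand), which acts in posterior muscle and epidermis, had 152 (18.5 and 23), 4163 bp upstream and inside cut-6. The others ran from 138 for unc-120, a muscle factor of the SRF type, and 113 for fozi-1 to 78 for mls-1 and 71 for ceh-51, a homeobox gene of the MS lineage. The window of ceh-51 was the other best candidate with the HES site CACGCG. In the other ranked list pal-1 did not lead this group, with a best score of 139, against 212 for mls-2 and 189 for vab-7.

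**Figure D2:**
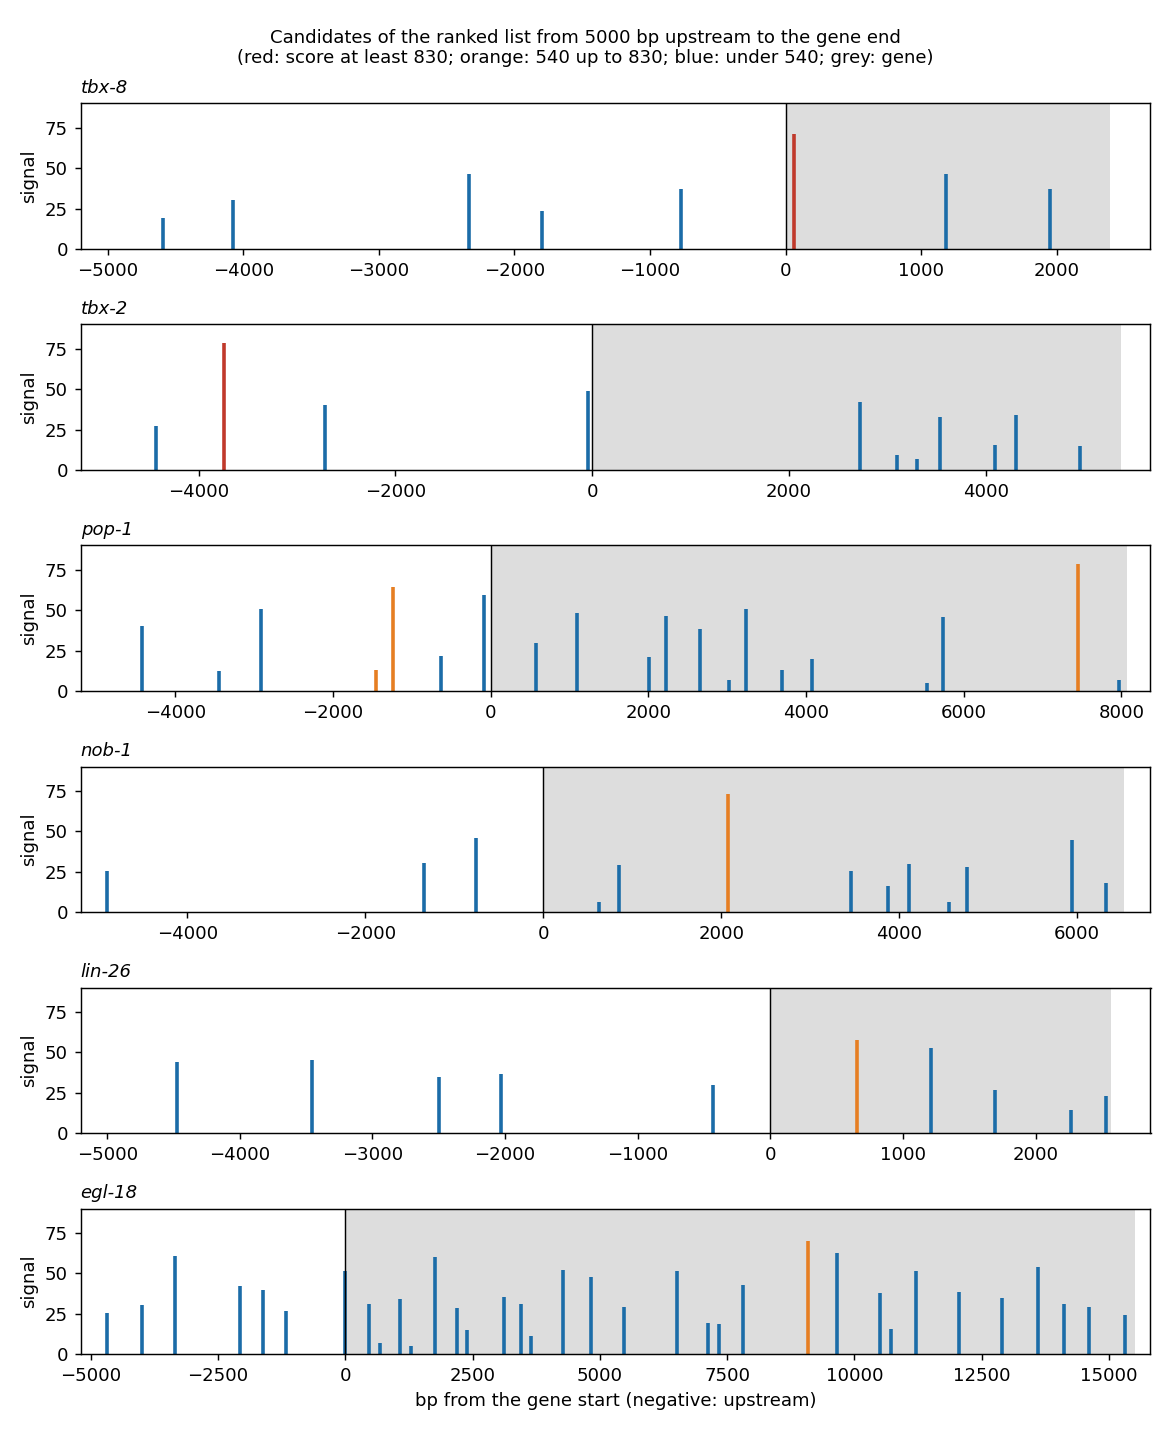
Each vertical line is 1 candidate of the ranked list, at its distance in bp from the gene start (negative: upstream) and with its merged signal as height, for 6 genes; grey marks the gene, red a score of at least 830, orange 540 up to 830 and blue lower scores. The high-scoring lines lie at the start of tbx-8, far upstream of tbx-2, near the end and upstream of pop-1 and inside nob-1, lin-26 and egl-18, among many lower ones, and the short orange line of pop-1 (13.2) repeats the input peaks of its neighbour.

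Across the members the best candidates were spread over the windows. Of 43, 23 lay upstream of the gene, 8 of these inside another protein-coding gene. A further 11 lay in introns, 7 in coding exons, 1 in a 5′ UTR and 1 in a 3′ UTR. Within 500 bp of the gene start lay 5, those of tbx-8, lin-39, egl-5, elt-2 and med-1. Those of elt-3 (27 bp), ceh-22 (104), skn-1 (106), elt-7 (373) and lin-26 (374) were as near to another transcript start of their own gene. The nearest start of a protein-coding gene was that of the member itself in 30 of 43, so 13 best candidates may as well be counted for a neighbour. These positions were not counted for all protein-coding genes, and they depend on the window. They describe the members and cannot be called a trait of them. None lay within 100 bp of a tRNA, snoRNA or snRNA gene, near the share of the whole ranked list (649 of 72151, 0.900%). Of the 396 distinct candidates in the members' windows, 2 did (0.505%). In the stricter conservative set 279 of the 675 peaks did (41.3%).

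The 2 inputs of the list, one from each replicate, are set side by side for these candidates, which were chosen by a score that favours like ranks in both. Input 1 was the higher in 20 members and input 2 in 23, and the ratio of input 1 to input 2 had a median of 0.953 (quartiles 0.830 and 1.18), against 0.878 (0.646 and 1.19) over the whole list. The narrower range comes with that choice and is no finding. The merged signals ran from 18.7 at nhr-23 to 78.4 at tbx-2 with a median of 46.2, against 28.5 for the whole ranked list and 102 for the conservative set. The 46.2 is of the best candidate of each window and the 28.5 of every candidate, so that difference also comes with the choice. The best candidates of all genes were not compared by signal. Among the 1000 strongest candidates by signal were those of 4 members, tbx-2, pop-1, nob-1 and php-3, of which the last 2 are the same candidate. How many best candidates of all genes stand there was not counted. In 32 of 43 members both input peaks recurred in the lists of single replicates. Over the whole list 55.3% of the input 1 peaks and 55.3% of the input 2 peaks did, and the share with both was not counted. In the list of replicate 1 alone the best scores of 540 or more were those of pop-1 (701) and egl-18 (687). In that of replicate 2 it was that of nhr-23 (562). As shares of 44 these counts lie near or below the 4.20% and 5.01% of all genes. The entry of pop-1 lay 1066 bp inside the gene and not at its best candidate in the 3′ UTR, which scored 579 there. That of nhr-23 lay 2565 bp inside, and its best candidate in the main list 6167 bp inside.

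**Figure D3:**
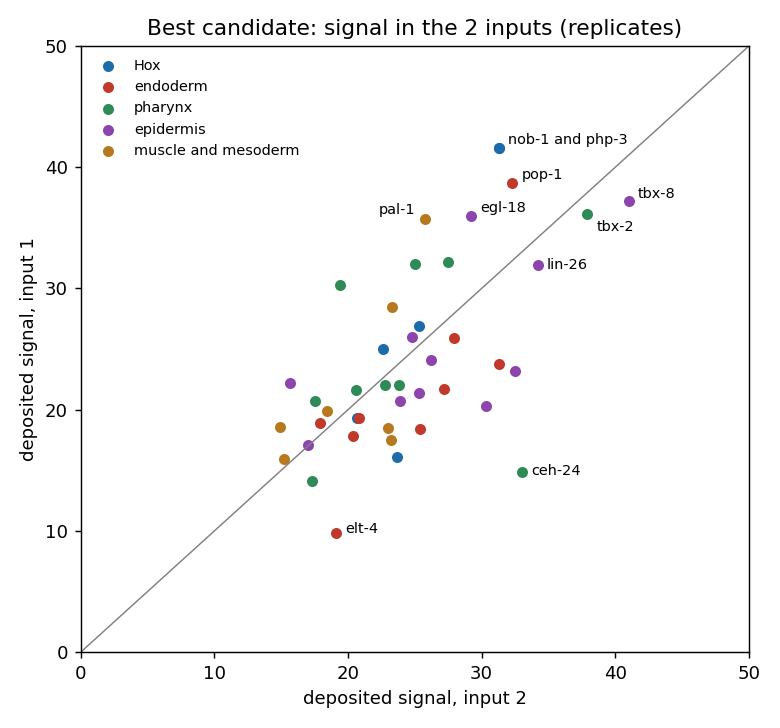
Points give the deposited signal (scale not stated) of the best candidate of each of 43 members in input 2 (x axis) and input 1 (y axis) of the ranked list, its 2 replicates, coloured by tissue group, with the line of equality. The candidates of tbx-8 and tbx-2 lie near the line at the upper right, that of nob-1 and php-3 highest on the y axis (41.6 against 31.3), and that of ceh-24 far to the right of it (14.9 against 33.0).

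Length of the window moves with these values, because a longer window holds more candidates. The median window of the members was 8603 bp, against 7027 bp over all protein-coding genes. Among genes with windows of 7027 to 8636 bp, the 13 members had a median best score of 250.0, against 127.0 for all genes of that length, and 3 reached 540 (23.1%, against 8.03%). From 8636 to 11771 bp, the 14 members had 226.5, against 170.0, and 2 reached 540 (14.3%, against 13.7%). Above 11771 bp the median turned, with 209.0 for 7 members (among them pop-1, egl-18 and pha-4), against 251.0 for all genes, although 2 of the 7 reached 540 (28.6%, against 399 of 1998 genes). In the shortest windows it was 142.0 for 3 members, against 100, and from 6215 to 7027 bp it was 109.0 for 7 members, against 103.5. None of these 10 shorter members reached 540 (against 7.73% and 7.59% of all genes). The difference in median was largest among members of middle length, and the part of length in it was not tested.

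**Figure D4:**
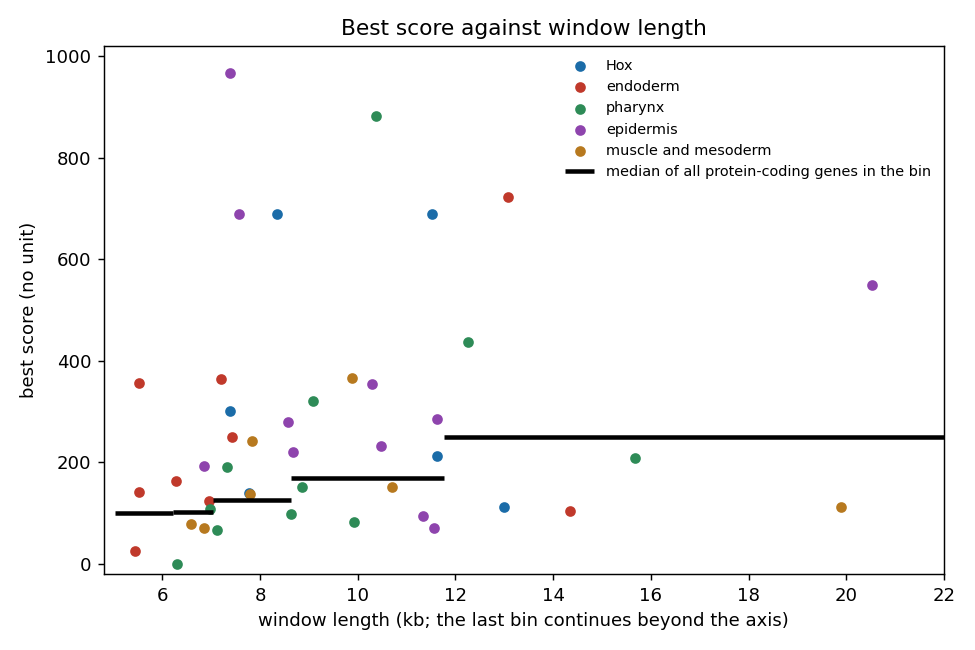
Points give the best score (no unit) of each of the 44 genes against the length of its window in kb, coloured by tissue group, and the black lines give the median of all protein-coding genes in 5 bins of length. Most points between 7 and 12 kb lie above the line, whereas beyond it 4 of the 7 points lie below.

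Chromosome moves with the values too. Chromosome III holds 18 of the 44 members and the best-scoring candidates of tbx-8, tbx-2 and nob-1 with php-3. It is also where protein-coding genes in general scored highest, with a median of 163.0 and 13.3% at 540. The 18 members on III had a median of 202.5. On X, 7 members had 142.0, against 137.0 for all genes, and on V 8 members had 158.0, against 99.0. On IV, 4 members had 288.0, against 112.0. The members' median was above that of all genes on each of the 6 chromosomes, and the part of chromosome in the counts was not tested.

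The members' windows held more candidates per length than those of other genes. Over all 44 there were 417 assignments of 396 distinct candidates, or 0.997 per kb, against 0.717 for all protein-coding genes. Without egl-18 it was 0.960. In the other ranked list it was 0.930 against 0.678, in that of replicate 1 alone 0.595 against 0.452 and in that of replicate 2 alone 0.555 against 0.444. By tissue it was 0.956 for Hox, 0.962 for endoderm, 0.917 for pharynx, 1.11 for epidermis and 0.992 for muscle and mesoderm genes, each above the value of all genes. By chromosome it was below that of all genes on II (0.667 for 3 members, against 0.768) and above it on the other 5. The densest members were elt-6 (1.85), egl-18 (1.71), php-3 (1.56) and pop-1 (1.53), and elt-4 (0.368) was the sparsest of those with a candidate.

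The difference was largest beyond 2000 bp inside the genes, and most of the candidates scored low. From 2000 to 3000 bp inside the gene, members had 1.32 candidates per kb, against 0.732, from 3000 to 4000 bp 1.63 against 0.748, and from 4000 to 5000 bp 1.57 against 0.778. These distances are reached by the longer members alone (28.8, 22.1 and 17.9 kb in all), and egl-18 is among them, without which the values were 1.30, 1.57 and 1.54. Nearer the start it was smaller, with 1.01 against 0.733 in the first 1000 bp inside and 0.902 against 0.714 from 1000 to 2000 bp. In the 1000 bp before the start it was 0.909 against 0.707, and from 2000 to 1000 bp upstream 1.05 against 0.691. From 3000 to 2000 bp upstream the members lay slightly below all genes (0.682 against 0.688). Of the 396 candidates, 76.3% had a score under 100, as did 76.4% of the whole list, and 2.02% had one of at least 540, against 2.15%. Per length the members had more candidates, with shares of high and low scores close to those of the list. Repeats of stronger entries made up 14.4% of them, against 12.4% of the list.

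Motifs of the HES type were found at few of the members' best candidates. Within 100 bp of the summit, CACGCG was found at 2 of the 42 distinct best candidates (4.76%), those of egl-18 and ceh-51, against 3.37% of the 72151 candidates and 12.6% of the conservative set. CACGTG was at 2 (4.76%, lin-39 and pha-4), against 4.77% of the list and 4.74% of the conservative set. The N-box CACNAG was at 12 (28.6%), against 21.3% and 31.9%, and the GATA site at 18 (42.9%), against 38.7% and 32.0%. TAATTA was at 1 (2.38%), against 6.99% of the list and 5.19% of the set, and the LAG-1 site at 1 (2.38%), against 6.60% and 7.70%. Among all 396 distinct candidates in the members' windows, TAATTA was at 8.33%, the LAG-1 site at 7.07% and the N-box at 83. The lower shares of the first 2 and the higher share of the N-box were thus not seen there. CACGCG was at 3.79% of the 396, CACGTG at 5.30% and the GATA site at 41.9%. The GC content of the windows was 42.9% ± 7.09 (SD, 42 windows), against 39.3% ± 7.28 over the list and 46.1% ± 6.52 in the conservative set, and its part in these shares was not tested.

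Companion genes of the same tissues, 42 cofactors, signalling partners and tissue products, had a median best score of 188.0, against 128.0 for all genes. Of these, 8 (19%) reached 540, against 9.88% of all genes, and 3 (7.14%) had a summit in the conservative set, against 4.95%. In the thresholded sets of single replicates 3 had one in that of replicate 1 (2.61% of all genes) and 3 in that of replicate 2 (3.18%), where no member had any. By tissue they differed from the members, where the 7 muscle and mesoderm genes had the lowest median (138.0, none at 415). The 9 muscle and mesoderm companions had the highest (345.0), with 4 at 415 (44.4%, against 13.6% of all genes). The 3 in the conservative set were sor-3, a Polycomb-type regulator of Hox genes, with 2 summits, pho-1, a gut acid phosphatase gene, and ajm-1, a gene of the epithelial junction. The summits of pho-1 (signal 76.6) and ajm-1 (171.5) and 1 of those of sor-3 (212.0, 320 bp upstream) lay within 100 bp of a tRNA gene. The other at sor-3, 2008 bp upstream, did not (score 1000) and was in the thresholded sets of both replicates. Its signal of 204.6 stands above the 78.4 of tbx-2 and the 71.3 of tbx-8.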

How the data were processed

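ChIP-seq for tagged REF-1 was read from 2 replicates of whole midembryos. The authors deposited peak lists on ce11, made from filtered alignments and a control file per the accompanying notes. For aligner, caller and depth, nothing is given in the sources used here. The deposited score was a log2 transform of the global IDR limited to 1000, which held within 1 for all 72151 candidates. The deposited −log10 of the global IDR gave the IDR values. The deposited signal, of unstated scale, served only to describe and rank candidates. The file does not say which input is which replicate. Of the peaks of input 1, 39887 recurred in the list of replicate 1 and 0 in that of replicate 2, and of those of input 2, 39929 recurred in that of replicate 2 and 0 in that of replicate 1. Of the candidates at or above 830, 180 are not in the conservative set.

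Genes followed Ensembl release 115 (WBcel235), and their windows ran from 5000 bp upstream to the gene end. Sequences came from the RefSeq genome of that build. Scripts used Python 3.11.15, pandas 2.3.3, NumPy 2.4.6 and matplotlib 3.10.9, and the assignment of summits was tested on simulated data. No test was made across genes, and shares stand beside those of 19973 protein-coding genes. The genes described in most detail are members with a summit in any thresholded set, the 3 highest best scores of each tissue group and members without a candidate; companions are those with a summit in the conservative set, which include the 3 highest. Other members appear by their values and were named with these in view. The members, lists and motifs were chosen with earlier results of these data known. Alternatives were other lists, thresholds, windows and assignments. Those on candidates per kb, and the counts by chromosome and by distance, were added after the data were seen.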

Additional observations from a re-analysis of the deposited data

How the results depend on the processing

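The count of members with a summit in the conservative set (2) was 0 in the thresholded set of either replicate (lowest 0, highest 0, leaving out each replicate in turn). It was 0 at a global IDR of at most 0.001 (against 1.90% of genes), 1 with the promoter window of 1000 bp upstream to 200 bp downstream (1.42%), 1 with 2000 bp upstream (3.24%) and 1 with the gene alone (1.39%). It was 2 by the nearest start (2.83%), without summits at small RNA genes (2.92%) and by distinct summits, so the members' 4.55% was near the share of all genes in the main count and above it in the first 2 of these. The count at a score of at least 540 (7, against 9.88%) was 1 to 2 leaving out each replicate in turn, against 5.01% and 4.20% of all genes, so the difference from all genes was gone there. It was 1 in the promoter window (2.70%). It was 5 of the 44 in the other ranked list, against 9.35% of all genes, a smaller difference than in the main list. With 2000 bp upstream it was 5 (6.51%), in the gene alone 5 (3.06%) and by the nearest start 6 (5.88%). Without summits at small RNA genes it was 7 (7.72%). In all settings but the promoter window and the lists of single replicates it lay within 1.5 times of 7. The median best score (201.0) was 53.0 to 65.5 leaving out each replicate in turn, against 37 and 30.0 for all genes. It was 155.0 in the other ranked list (117 for all genes), 63.0 in the promoter window (25), 121.5 with 2000 bp upstream (90), 107.0 in the gene alone (52.0) and 152.0 by the nearest start (80.0), above that of all genes in each of these. The cause of these shifts was not tested, except that a shorter window holds fewer candidates by construction. The count of members with a candidate (43) ran from 33 in the promoter window, against 60.3% of all genes, to 44. It was 44 in the other ranked list (88.5%) and in the list of replicate 1 alone (89.4%).

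No paired analysis was possible because there is 1 group. The depth is unknown, and a weak site cannot be told from an absent one. Scores of single replicates come from other inputs than those of the pair and are not on one footing with them. Control and untagged samples were not analysed here.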
